A study of Mus musculus with 33 samples.

Results

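Brca1, Palb2, Brca2, Rad51ap1, Exo1, Blm, Brip1, Fancd2 and Fanci are 9 genes of homologous recombination and Fanconi repair, chosen by gene symbol from the 14862 rows of the count table. All 9 symbols were found. The genes were read in 33 single cells from mouse heart ventricles. The animals carried mAG-hGem, in which a green fluorescent protein is fused to geminin as in FUCCI reporters, and cells were sorted by its fluorescence. The groups were 10 reporter-positive and 11 reporter-negative cells at embryonic day 14.5 (E14.5 positive and E14.5 negative) and 6 of each kind at postnatal day 5 (P5 positive and P5 negative). All 33 carried the same transgene, and no treatment is given. Cells are named by their titles, in which G and N mark the E14.5 positive and negative cells and P and N the P5 ones.

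Homologous recombination copies a broken stretch of DNA from the sister chromatid, so it works from S phase to G2. Nucleases such as EXO1 resect the broken end, and BRCA1 recruits PALB2 and BRCA2 to prepare the single strand for pairing with the sister. The Fanconi pathway opens crosslinks between DNA strands. Its core complex and the E2 enzyme UBE2T attach ubiquitin to the FANCD2 and FANCI pair, and recombination completes the repair. Many of these genes are transcribed under E2F control as cells enter S phase, and heart muscle cells largely leave the cell cycle in the days after birth.

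Each library is 1 cell and no animal is named, so each group counts as 1 sample and no comparison here has a test or a replicate check. Levels are counts per 1000000 (CPM) from counts summed over a group, with an exact Poisson interval at 95%. Groups are compared by the log2 ratio of their CPM, with an exact binomial interval at 95%. Both intervals hold counting error only, and single cells spread far more widely. A gene with at least 10 counts over both groups and at least a 2-fold ratio, with 0.5 count added to each side, is called higher or lower. Totals per cell ran from 2.55 to 38.5 M counts (1 M is 1000000 counts), with group medians between 11.5 and 16.9 M.

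The label calls all 33 libraries single cardiomyocytes, accepted after a PCR for Tnnt2. The cardiomyocyte marker Tnnt2 stood between 4216 and 4323 CPM in 3 groups and at 54.4 CPM in P5 negative cells. The summed 11 cardiomyocyte markers were below the markers of another cell type in all 6 P5 negative cells, in the P5 positive cell L2P12 and in the E14.5 negative cell N10. In L2P12 all 7 endothelial markers were at 10 CPM or more, at 5327 CPM in sum beside 101 CPM of cardiomyocyte markers. The P5 negative group therefore goes against its label, and results that rest on it or on L2P12 are given with that value beside them.

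Repair transcripts were patchy, and they were found together in more E14.5 positive cells than in any other group. In E14.5 positive cells 42 of the 90 pairs of a cell and a gene (46.7%) were at 10 CPM or more. In E14.5 negative cells the share was 17.2% of 99 pairs. At P5 it was 22.2% of 54 pairs with the reporter and 16.7% of 54 pairs without it. L2P12, led by endothelial markers, held 5 of the 12 P5 positive pairs at this level. A cell held between 2 and 7 of the 9 genes at this level in E14.5 positive cells, with a median of 4. The lowest, median and highest numbers were 0, 1 and 6 in E14.5 negative, 0, 2 and 5 in P5 positive and 0, 1.5 and 3 in P5 negative cells. The ranges overlapped between all groups. Cells with at least 3 of the genes at 10 CPM numbered 8 among the 10 E14.5 positive and 3 among the 11 E14.5 negative cells. At P5 they were 2 of the 6 cells with and 2 of the 6 cells without the reporter. The P5 positive ones were L2P8 and L2P12.

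**Figure D1:**
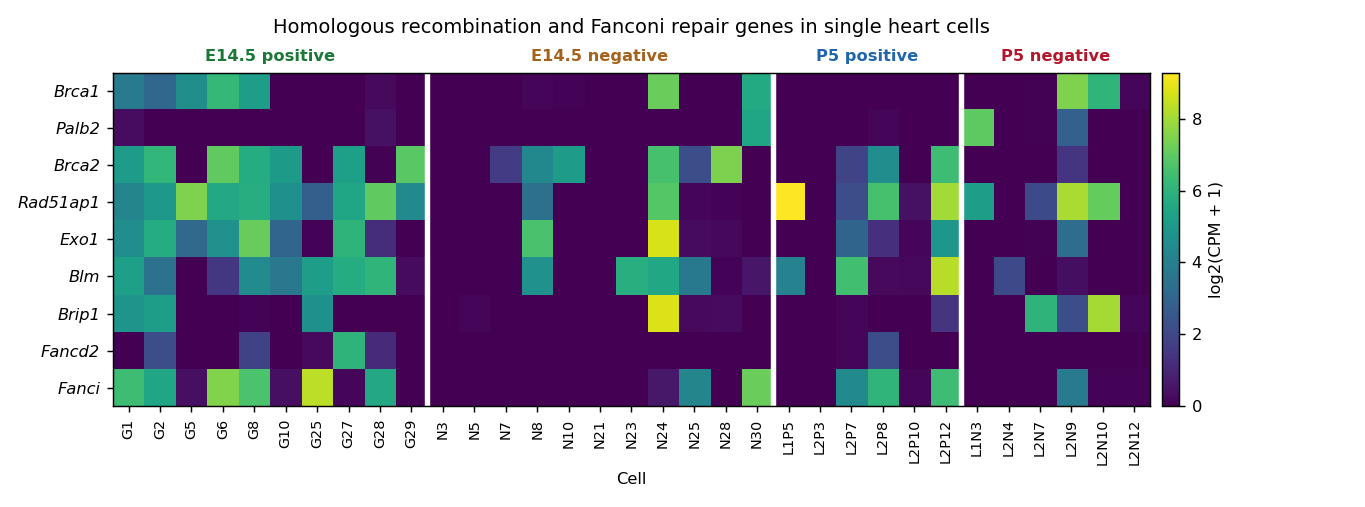
Level of each of the 9 repair genes (rows) in each of the 33 cells (columns), as log2(CPM + 1). Within the E14.5 negative group the signal sits in a few cells, led by N24, where 6 of the 9 genes are at 10 CPM or more, while all 10 E14.5 positive cells hold at least 2.

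Thinning each cell to 8671357 counts, with 6 shallower cells left out, changed the number of genes at 10 CPM in 0 of the remaining cells. Reads are not counted as independent molecules here, so thinning does not test which transcripts entered a library. As a reference for stray reads, the liver gene Alb and the neuronal gene Neurod1 each had a read in 2 of the 33 cells, and the endothelial gene Cdh5 in 0 of the 21 E14.5 cells. Alb reached 15.5 CPM in 1 cell, N5, so a single gene at 10 CPM in a single cell is close to what a gene foreign to heart can show. Every repair gene had a read in more cells than Alb or Neurod1.

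Promoter sequence is shown for 3 genes on which the results turn. These are Rad51ap1, whose share of cells differed most with the reporter at E14.5, Brip1, whose ratio rested on N24, and Brca2. Brca2 was at 10 CPM or more in 13 of the 33 cells, after Rad51ap1 in 16 and Blm in 14. Windows of 250 bases before to 50 after the gene start were taken from RefSeq (GRCm38.p6), where 7 of the 9 genes matched an entry, and Exo1 and Fancd2 did not. Both strands were searched for E2F-type letters (TTTGGCGC, TTTCCCGC, TTTGCCGC or TTTCGCGC), the cell cycle homology letters TTTGAA or TTCGAA, and CCAAT. Matches are in capitals, and the sequences read 5′ to 3′ along the gene. The Rad51ap1 stretch is chr6:126939588-126939687 (minus strand), the Brip1 stretch chr11:86201194-86201313 (minus strand) and the Brca2 stretch chr5:150522421-150522520 (plus strand).
Rad51ap1: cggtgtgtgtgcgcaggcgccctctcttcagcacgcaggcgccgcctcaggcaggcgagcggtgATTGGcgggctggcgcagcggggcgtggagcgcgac
Brip1: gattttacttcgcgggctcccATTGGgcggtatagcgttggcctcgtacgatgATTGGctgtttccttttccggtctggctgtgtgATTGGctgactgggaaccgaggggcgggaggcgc
Brca2: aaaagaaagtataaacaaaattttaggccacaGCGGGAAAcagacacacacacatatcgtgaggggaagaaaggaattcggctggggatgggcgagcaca

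The letters ATTGG are CCAAT read on the other strand, and GCGGGAAA is TTTCCCGC read on the other strand. CCAAT was found in the windows of Rad51ap1, Blm, Palb2, Brip1 and Brca1, and in 37.4% of all 32851 promoters of the table. Brip1 held 3 matches, at -99, -67 and -34 from its start. The E2F-type letters were found in Brca2 only, at -168, and in 2.26% of all promoters. The cell cycle homology letters were in none of the 7 windows and in 19.2% of all promoters. A match is a string of letters and not a shown binding site.

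Brca1, the scaffold that directs broken ends to recombination, was at 0, 3.71 and 71.4 CPM (lowest, median and highest cell) in E14.5 positive cells. The same values were 0, 0 and 142 CPM in E14.5 negative, 0 in all 6 P5 positive, and 0, 0.0769 and 176 CPM in P5 negative cells. The high cells were G6, N24 and L2N9, and the ranges overlapped at 0. At least 10 CPM was found in 4 of the 10 positive cells at E14.5 (40%, exact interval 12.2 to 73.8%) and in 2 of the 11 negative ones (18.2%, 2.28 to 51.8%). In the summed counts the order was reversed, at 9.37 CPM (8.90 to 9.86) with the reporter against 21.2 CPM (20.6 to 21.9) without it, and a log2 ratio of -1.18 (-1.27 to -1.09). The cell N24 held 79.7% of the E14.5 negative counts, and without it the ratio was 0.94. With 1 cell left out at a time, the ratio ran from -1.88 to 0.94. With 0 counts in P5 positive cells, Brca1 was at least 288-fold lower there than in E14.5 positive cells. G6 held 41.8% of the E14.5 positive counts, and without it the bound was 177-fold. A count of 0 in 6 cells leaves a share of cells with a read of up to 45.9%.

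Palb2, the bridge between BRCA1 and BRCA2, was less often detected than either of them. It was at 10 CPM or more in 2 of the 33 cells, namely N30 at 44.0 CPM and L1N3 at 125 CPM. In E14.5 positive cells it ranged from 0 to 0.333 CPM and in P5 positive cells from 0 to 0.112 CPM. Its log2 ratio of E14.5 positive over negative cells, -5.91 (-6.97 to -5.02), rested on N30, which held all of the E14.5 negative counts. Without N30 the E14.5 negative group had 0 counts beside 10 counts in E14.5 positive cells, and the ratio with 0.5 count added was 4.57. P5 positive over E14.5 positive stood at -0.96 (-3.46 to 1.00), from 3 and 10 counts.

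Brca2, which acts on the resected single strand, was among the most widely found of the 9 genes by cells at 10 CPM or more. In E14.5 positive cells it was at 0, 34.9 and 127 CPM (lowest, median and highest cell), and 7 of 10 cells were at 10 CPM or more. In E14.5 negative cells it was at 0, 2.15 and 175 CPM, with 4 of 11 cells at that level. Summed, the groups held 42.9 and 46.95 CPM, a log2 ratio of -0.13 (-0.18 to -0.09). The cell N28 held 65.7% of the E14.5 negative counts, and without it the ratio was 1.13. In P5 positive cells Brca2 was at 0, 1.36 and 82.5 CPM, and L2P12, the cell with endothelial markers, held 74.4% of the counts. The log2 ratio to E14.5 positive cells was -0.66 (-0.73 to -0.60), and -2.23 without L2P12. Of the P5 negative cells only L2N9 had reads, at 1.72 CPM.

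Rad51ap1, a DNA-binding protein that stimulates strand pairing, differed most between the reporter groups at E14.5 in its share of cells. Its promoter is the first of those shown. It had reads in all 10 E14.5 positive cells, at 6.08, 37.0 and 178 CPM (lowest, median and highest cell), and 9 of 10 were at 10 CPM or more (90%, 55.5 to 99.7%). In E14.5 negative cells it was at 0, 0 and 112 CPM, and only N24 was at that level (9.09% of 11 cells, 0.230 to 41.3%). Apart from N24 and N8, at 9.62 CPM, no E14.5 negative cell exceeded 0.0890 CPM. Among all genes tested, 2.44% had a share of cells at 10 CPM that was at least 50 percentage points larger in E14.5 positive cells, and Rad51ap1 was the 1 of the 9 repair genes to do so. The log2 ratio was 1.98 (1.92 to 2.05), and 6.27 without N24, which held 95.5% of the E14.5 negative counts.

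At P5 the same number of cells was at this level in each reporter group, but the groups differed in cell type by their markers. All 6 P5 negative cells and the P5 positive cell L2P12 were led by markers of another cell type. Rad51ap1 was at 0, 49.1 and 618 CPM in P5 positive and at 0, 19.5 and 271 CPM in P5 negative cells, with 3 of 6 cells at 10 CPM or more in each. The P5 positive cells L1P5, L2P12 and L2P8 were high, at 618, 251 and 94.7 CPM, and the other 3 were between 0 and 3.51 CPM. The library of L1P5 was the shallowest of the series. P5 positive over E14.5 positive gave 0.94 (0.90 to 0.98), and 0.10 without L2P12. Whether the difference between reporter groups changes with age was not tested.

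Exo1, the nuclease that resects DNA ends, was at 0, 15.2 and 138 CPM in E14.5 positive cells and at 0, 0 and 418 CPM in E14.5 negative cells. It was at 10 CPM or more in 5 of 10 and 2 of 11 cells. The high E14.5 negative cells were N24, at 418 CPM, and N8, at 96.1 CPM, and the other 9 stood below 0.23 CPM. The summed levels were 33.5 and 56.1 CPM, a log2 ratio of -0.75 (-0.79 to -0.70) that became 2.25 without N24. Exo1 was at 0, 0.769 and 28.6 CPM in P5 positive cells. The ratio to E14.5 positive cells was -1.999 (-2.11 to -1.89), and -4.20 without L2P12, the only P5 positive cell at 10 CPM or more. No P5 negative cell reached that level, and the highest, L2N9, was at 8.99 CPM.

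Blm, the helicase that unwinds recombination intermediates together with TOP3A and RMI1, was at 0, 16.6 and 66.3 CPM in E14.5 positive cells, with 7 of 10 at 10 CPM or more. In E14.5 negative cells it was at 0, 0.0582 and 56.4 CPM, and the 4 cells at that level were N23, N24, N8 and N25. The log2 ratio was 0.90 (0.84 to 0.97), and it was 1.68 without N23, which held 50.6% of the E14.5 negative counts. After birth, Blm was at 0, 8.15 and 309 CPM in the P5 positive cells. L2P12 held 85.9% of those counts, followed by L2P7 at 87.0 CPM and L1P5 at 16.1 CPM. P5 positive over E14.5 positive gave 1.47 (1.42 to 1.52) and changed sign without L2P12, to -0.96. In P5 negative cells the highest value was 3.11 CPM, in L2N4.

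Brip1, the BRCA1-binding helicase also known as FANCJ, had its counts in a few cells. It was at 0, 0 and 35.4 CPM in E14.5 positive cells, with G1, G2 and G25 at 24.3 to 35.4 CPM and the other 7 below 0.09 CPM. In E14.5 negative cells N24 was at 441 CPM and held 99.9% of the counts, and the next cells, N28 and N25, were at 0.204 and 0.178 CPM. The log2 ratio of this gene, whose promoter holds the 3 CCAAT matches, was -3.14 (-3.24 to -3.05) with N24 and 6.42 (5.61 to 7.38) without it. No P5 positive cell exceeded 1.64 CPM. The P5 negative cells L2N10 and L2N7 were at 261 and 64.3 CPM, and the summed level there was 68.1 CPM (66.4 to 69.9), the highest of the 4 groups with all cells. L2N10, like the other P5 negative cells led by markers of another cell type, held 66.9% of those counts. Without L2N10 the level was 27.3 CPM, and the log2 ratio of P5 negative over E14.5 negative cells went from 0.37 to -0.95. Without N24 in place of L2N10, that ratio was 9.93 (9.13 to 10.9).

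Fancd2 had reads in 5 of 10 E14.5 positive cells and in 0 of 11 E14.5 negative cells, which leaves a share of up to 28.5% in the latter. In E14.5 positive cells it was at 0, 0.0895 and 63.6 CPM, and G27 alone held 96.4% of the counts. Set against 3 counts in the E14.5 negative group, the floor used where a group has none, it was at least 1047-fold higher in E14.5 positive cells. Without G27 the log2 ratio, with 0.5 count added to each side, was 8.24 in place of 12.62. In P5 positive cells only L2P7 and L2P8 had reads, at 0.0798 and 3.70 CPM, and no P5 negative cell had any. P5 positive against E14.5 positive cells gave -3.89 (-4.19 to -3.60), and 0.50 without G27. Fancd2 overlaps Fancd2os on the opposite strand over 257 exon bases (3.24% of its exons), and use of strand in counting is not given in the sources used here. Fancd2os, like Fancd2, was highest in G27, at 86.2 CPM, and it had reads in 0 of 11 E14.5 negative cells, so the origin of reads in the shared bases cannot be told apart.

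Fanci encodes the partner of FANCD2 in the ubiquitinated pair. It was at 0, 45.1 and 326 CPM in E14.5 positive cells, with 6 of 10 cells at 10 CPM or more, and at 0, 0 and 142 CPM in E14.5 negative cells, with N30 and N25 at that level. The log2 ratio was 2.22 (2.16 to 2.28). It was 1.33 without G25, which held 51.6% of the E14.5 positive counts, and 4.86 without N30, which held 85.3% of the E14.5 negative counts. In P5 positive cells Fanci was at 0, 10.2 and 82.1 CPM, with L2P12, L2P8 and L2P7 at 10 CPM or more. P5 positive over E14.5 positive gave -0.67 (-0.73 to -0.62). It was 0.21 without G25 and -1.21 (-1.28 to -1.14), past the 2-fold limit, without L2P12. Fanci shares 921 exon bases (15.95% of its exons) with Polg on the opposite strand. At E14.5 the summed level of Polg was 13.9 CPM with the reporter and 2.10 CPM without it. In single cells, Fanci and Polg were at 326 and 1.07 CPM in G25, 0.104 and 29.4 CPM in G27, and 47.6 and 30.7 CPM in G28. The source of reads in the shared bases cannot be told apart and was not tested.

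**Figure D2:**
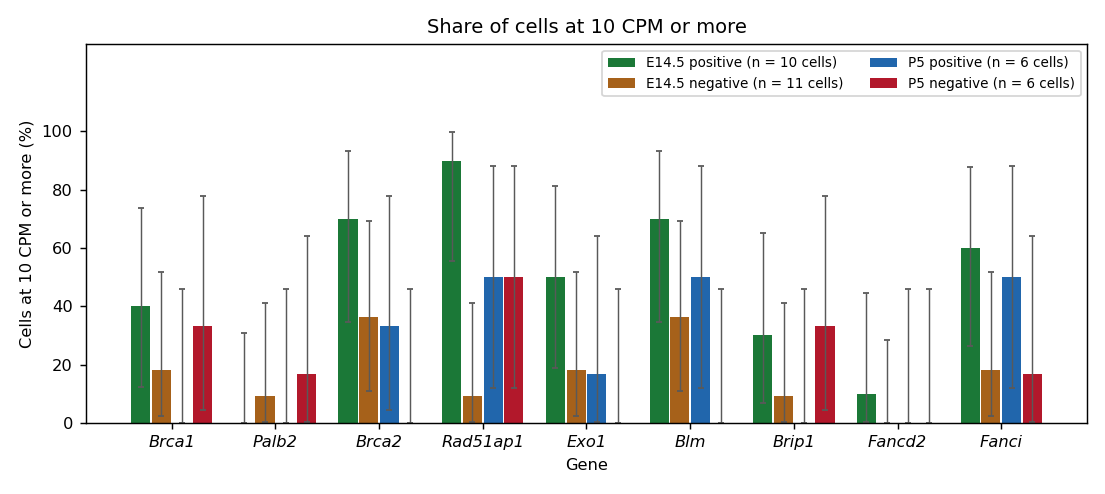
Share of cells at 10 CPM or more (percent, y axis) for each repair gene (x axis) in the 4 groups, with exact binomial intervals at 95% that cover the counting of these cells only. The E14.5 positive bar is above the E14.5 negative bar for 8 of the 9 genes, Palb2 being the exception, and the widest gap is that of Rad51ap1 (90% against 9.09%).

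Read as shares of cells, 8 of the 9 genes were found at 10 CPM in a larger share of E14.5 positive than of E14.5 negative cells, with a median difference of 31.8 percentage points. Over all genes tested 45.8% had a larger share in E14.5 positive cells, or 55.5% of the 10424 genes at 10 CPM in at least 1 cell of either group, whose median difference was 2.73 percentage points. A cell with the reporter held reads in 6675 to 10769 genes at E14.5 and a cell without it in 5532 to 8891, and the part of detection in the shares was not tested. Summed counts gave another picture. In them 3 genes were called higher (Rad51ap1, Fancd2 and Fanci) and 3 lower (Brca1, Palb2 and Brip1), against 22.4% higher and 29% lower among the 12633 genes tested. These shares of 33.3% each way do not set the 9 genes far from that background. The median log2 ratio of the genes was -0.13, beside -0.16 over all genes tested. With equal weight for each cell the median was 0.65, since Brca2 went to 0.65, and Brca1, at -0.21, was no longer called lower.

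The cell N24 separates both readings. It carried the reporter-negative label, yet its 31 S phase genes summed to 19227 CPM, the highest of the E14.5 cells, and 10 of 11 cardiomyocyte markers were at 10 CPM or more. Brip1, Exo1, Brca1, Rad51ap1, Brca2 and Blm were at 44.7 to 441 CPM in it, while Fanci was at 0.515 CPM and Fancd2 and Palb2 at 0. Without N24, 6 genes were higher and 1, Palb2, was lower, with a median of 2.04. Over all genes the same omission gave 24.02% higher, 28.3% lower and a median of -0.14. Leaving out N30 in place of N24 left 1 gene lower.

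The E14.5 titles carry numbers from 1 to 10 and from 21 to 30, and what the numbers stand for is not given. In cells numbered 1 to 10, 8 genes were higher in positive cells and 0 lower of the 8 with enough counts, with a median log2 ratio of 5.85. Palb2, with 2 counts against 0, was not among them. Over all genes of these cells 30.6% were higher and 25.5% lower, with a median of 0.02. In cells numbered 21 to 30, which include N24, 3 of the 9 were higher and 4 lower, with a median of -0.64. Over all genes there 23.01% were higher and 36.6% lower, with a median of -0.31.

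**Figure D3:**
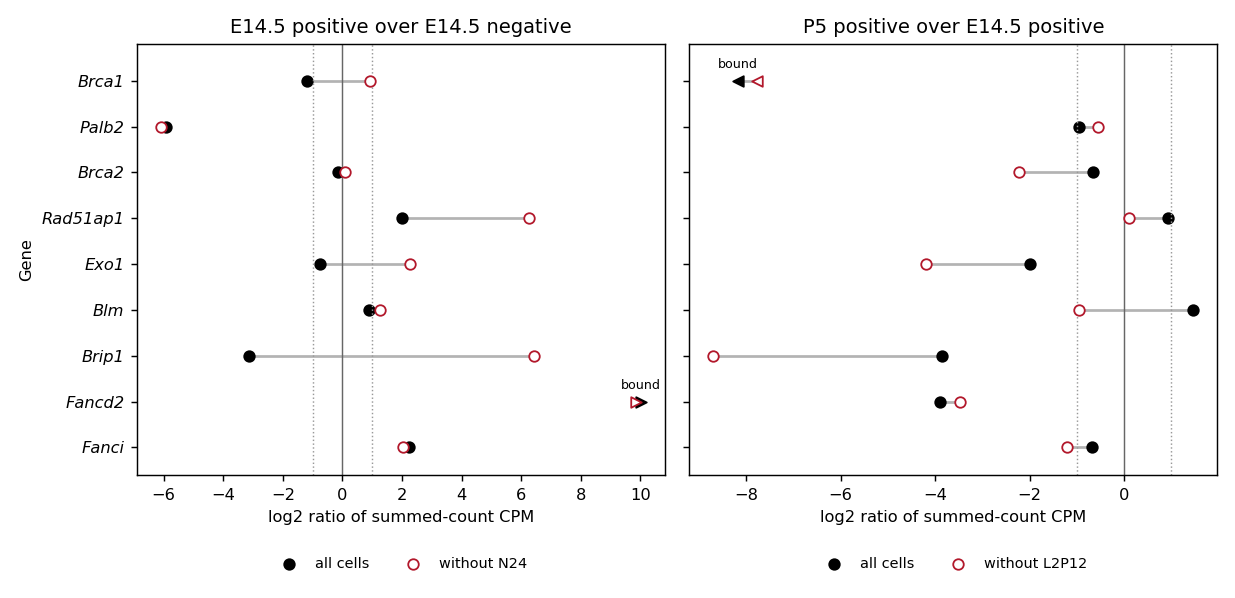
Log2 ratio of summed-count CPM for each repair gene in 2 comparisons, with all cells (filled) and without the cell named under the panel (open). Triangles are bounds against a floor of 3 counts, and dotted lines mark a 2-fold ratio. Without N24, Brca1, Brca2, Exo1 and Brip1 pass from the negative to the positive side at E14.5, and without L2P12, Blm passes to the negative side in the P5 comparison.

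Reporter-positive cells of both ages were compared next, to ask whether cells with the reporter hold these transcripts after birth. By share of cells, 8 of the 9 genes were at 10 CPM in a smaller share of P5 positive than of E14.5 positive cells, and Palb2 was at that level in none of either. Over all genes tested 50.4% had a smaller share in P5 positive cells, or 60.2% of the 10273 genes at 10 CPM in at least 1 cell of either group. The median difference was -30 percentage points over the 9 genes and -10 over those 10273. The P5 positive shares include L2P12, led by endothelial markers. A P5 positive cell held reads in 3991 to 8786 genes and an E14.5 positive cell in 6675 to 10769, and the part of detection was not tested. None of the 9 differed by as much as 50 percentage points, where 7.67% of all genes tested were lower by that much. The largest gaps were those of Brca1 (0 of 6 against 4 of 10) and Rad51ap1 (3 of 6 against 9 of 10), 40 percentage points each. In summed counts, Blm was called higher and Brca1, Exo1, Brip1 and Fancd2 lower. That is 1 higher and 4 lower of 9, against 30.3% and 40.9% of the 12262 genes tested, so the counts do not stand apart from the background. The median of the 9 was -0.81, beside -0.39 over all genes.

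These values leaned on L2P12, in which 5 of the 9 genes were at 10 CPM or more and endothelial markers led. Without it 0 genes were higher and 6 lower, with a median of -2.22. All genes moved the same way with this omission, to 24.5% higher, 49.0% lower and a median of -0.93. Among the other 5 P5 positive cells, L2P7 and L2P8 held 2 and 3 of the genes, L1P5 held 2, and L2P3 and L2P10 held none. L2P10 was low in G2/M genes as well, at 32.1 CPM in sum. L2P3 was not: its 26 G2/M genes summed to 14349 CPM with 0 reads in any of the 9 repair genes, while Ube2t stood at 994 CPM.

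Comparisons with P5 negative cells set different cell types side by side, since the markers of that group go against its label. P5 positive over P5 negative gave 5 genes higher (Brca2, Exo1, Blm, Fancd2 and Fanci) and 3 lower (Brca1, Palb2 and Brip1), against 34.2% and 39.4% of 11567 genes. The median was 2.79, and it ran from 0.60 without L2P12 to 7.29 without L2N9. P5 negative over E14.5 negative gave 2 higher (Palb2 and Rad51ap1) and 4 lower (Brca2, Exo1, Blm and Fanci) of the 8 genes with enough counts, against 33.6% and 41.7% of 12552 genes. Without N24, 4 were higher. Within the P5 negative group, L2N9 and L2N10 each held 3 of the 9 genes at 10 CPM or more, L1N3 held 2, L2N7 held 1, and L2N4 and L2N12 held none.

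The genes were not found in fixed sets. All 8 cells with Exo1 at 10 CPM or more also had Brca2 at that level, and 7 of 8 Brca1 cells also had Rad51ap1. Of all 33 cells, 13 had Brca2 and 16 had Rad51ap1 at that level. Fanci and Fancd2, whose proteins form a pair, were together at this level in 0 cells, as Fancd2 reached it in G27 only, where Fanci was at 0.104 CPM. Palb2 was at this level together with Brca2 in 0 cells and with Brca1 in 1.

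Ube2t and Bard1 were read as partners outside the 9 genes. Ube2t, the E2 enzyme of the Fanconi pathway, was at 10 CPM or more in 10 of the 10 E14.5 cells with the reporter and in 7 of the 11 without it, with a log2 ratio of 2.86 (2.84 to 2.88). Of the 12 cells with Fanci at this level 11 also had Ube2t, which was at this level in 23 of all 33 cells. N24, with 6 of the repair genes, had Ube2t at 0.214 CPM. Bard1, the partner of BRCA1, was at this level in 5 of the 8 Brca1 cells and in 10 of all 33 cells.

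The wider pathway lists were described in the same way. Of 35 other recombination genes, 14 were higher and 6 lower in E14.5 positive than in E14.5 negative cells, with a median of 0.81. Among those at 10 CPM or more in 1 of the groups, the highest were Gen1, a resolvase of recombination junctions, at 15.3 against 1.94 CPM, and Xrcc2, which acts in strand pairing, at 11.2 against 2.08 CPM. The lowest at that level was Rad51d, which acts in a complex with XRCC2, at 0.753 against 13.3 CPM. Of 20 other Fanconi genes, 5 were higher and 4 lower, with a median of 0.14. Under the same limit, Fancb, a subunit of the core complex, led at 19.0 against 0.0511 CPM, and Rfwd3, a ubiquitin ligase, was lowest at 9.80 against 56.9 CPM. Of 18 checkpoint genes 4 were higher and 4 lower, and of 11 end-joining genes 3 were higher and 3 lower. Of 31 S phase genes 8 were higher and 4 lower, with a median of 0.13. Of 26 G2/M genes all 26 were higher, with a median of 4.38. The background of all genes tested was 22.4% higher and 29% lower. List shares were 40% and 17.1% for recombination, 25% and 20% for Fanconi, and 22.2% each way for checkpoint genes. For end-joining genes they were 27.3% each way, and for S phase genes 25.8% and 12.9%. These list values include N24 and are not given without it.

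Between ages, 8 of 34 other recombination genes tested were higher and 16 lower in P5 positive than in E14.5 positive cells, with a median of -0.47. Of those at 10 CPM or more in 1 of the groups, Rad54l and Rad54b, motor proteins of strand exchange, were among the 3 lowest, at 6.85 against 120.2 CPM and 2.496 against 33.5 CPM. Gen1 was lowest, with 0 counts in P5 positive cells and at least 470-fold lower. Of 19 other Fanconi genes 8 were higher and 5 lower, and of 11 end-joining genes 2 were higher and 6 lower. Of 18 checkpoint genes 6 were higher and 6 lower. Of 31 S phase genes 2 were higher and 12 lower, and of 26 G2/M genes 7 were higher and 1 lower. The background of all genes tested was 30.3% higher and 40.9% lower. List shares were 23.5% and 47.1% for recombination, 42.1% and 26.3% for Fanconi, and 18.2% and 54.5% for end-joining genes. For checkpoint genes they were 33.3% each way, for S phase genes 6.45% and 38.7%, and for G2/M genes 26.9% and 3.85%. These list values include L2P12 and are not given without it.

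Within single cells the repair genes went with S phase genes more than with G2/M genes. Over the 33 cells, Spearman's rho between the mean log2(CPM + 1) of the 9 genes and of the S phase list was 0.79, and 0.57 for the G2/M list. Over the 10 E14.5 positive cells the values were 0.75 and -0.38. These are descriptions over cells that share groups and differ in depth and in genes detected. The number of repair genes at 10 CPM had a rho of 0.66 with the number of genes detected in the 33 cells and 0.77 in the E14.5 positive cells, while rho between the mean level and total counts was 0.13 and -0.38. The part of detection in the relation with S phase genes was not tested.

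**Figure D4:**
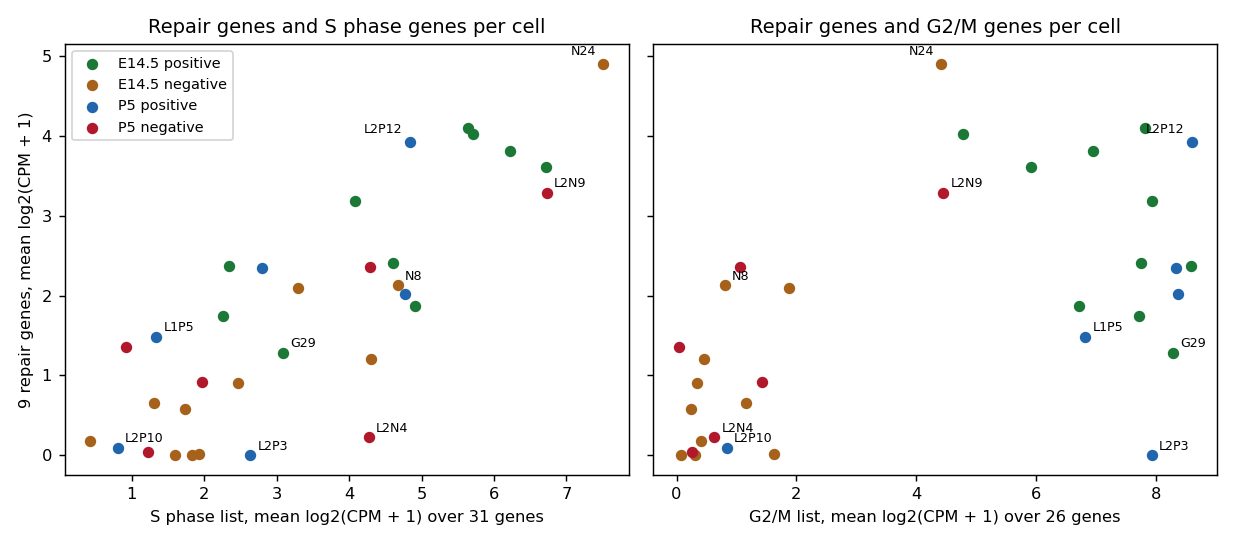
Mean log2(CPM + 1) of the 9 repair genes (y axis) against that of the 31 S phase genes (left) and of the 26 G2/M genes (right), 1 point per cell. Points rise along the S phase axis with N24 at the top (rho 0.79), while on the G2/M axis N24 and L2N9 lie between the groups and L2P3 has a high G2/M level with none of the repair genes.

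The genes whose pattern over the 33 cells was most like the mean of the 9, among 8116 candidates, were Pole (rho 0.81), Cdc7 (0.80), Fignl1 (0.78), Uhrf1, 2810417H13Rik, Ncapg2, Clspn, Lig1, E2f8 and Kntc1 (0.74). Pole encodes a replicative DNA polymerase subunit, Cdc7 a kinase of replication origins and Lig1 the ligase of Okazaki fragments. The median rho over all candidates was 0.15. Roles are given here for these 3 genes only, and the ranking was not tested for a theme. Within the 21 E14.5 cells Bard1 led with 0.87. Cenpm (0.864), Mad2l1 (0.855), Rrm2 (0.848) and Zwilch (0.847) followed, and 3 of the first 10 genes over the 33 cells were again among the first 10.

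Compared per kilobase of exon, Fanci and Rad51ap1 were the highest of the 9 in E14.5 positive cells, at 11.6 and 11.5 CPM per kb. Whether counts from amplified RNA scale with exon length was not tested. Exo1, Blm and Brca2 followed at 3.97, 3.62 and 3.14, Fancd2, Brca1 and Brip1 at 2.02, 1.10 and 0.799, and Palb2 at 0.00862 CPM per kb. Without G25, Fanci was at 6.27 CPM per kb. Fancd2 was at 0.0969 CPM per kb without G27, so its place rested on that cell. Brca1 was at 0.676 without G6, and Brip1 at 0.507 without G25. In P5 positive cells Rad51ap1 led at 22.1 CPM per kb, and Blm and Fanci followed at 10.01 and 7.26. Without L2P12, Rad51ap1 was at 12.4, Fanci at 5.01 and Blm at 1.86 CPM per kb, so the place of Blm rested on that cell. The exon lengths were those of the union of exons in GENCODE vM21, and the single-cell ranges of neighbours in this order overlapped. The order depends on the division by length. Without it, Brca2 in E14.5 positive cells was at 42.9 CPM, above Exo1 at 33.5 and Blm at 31.8 CPM.

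In GRCm38, the build that the submitters' processing notes name as mm10, the genes lie on 5 chromosomes. Brca1 is at chr11:101488764-101551955 and Brip1 at chr11:86058138-86201193, both on the minus strand. Fanci (chr7:79391929-79450264, plus strand), Blm (chr7:80454733-80535119, minus strand) and Palb2 (chr7:122107262-122132985, minus strand) share chromosome 7. Rad51ap1 (chr6:126923050-126939587, minus strand) and Fancd2 (chr6:113531682-113597017, plus strand) share chromosome 6. Brca2 is at chr5:150522630-150570329 and Exo1 at chr1:175880581-175913489, both on the plus strand. Of the 12 cells with Fanci and the 14 cells with Blm at 10 CPM or more, 8 were shared.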

How the data were processed

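The deposited table holds raw read counts per gene and cell, which the authors made from libraries of amplified RNA. Per the labels, cells were dissociated from ventricles, sorted by FACS, reverse transcribed and accepted by PCR for Tnnt2 and against Pdgfrb, and a TruSeq kit was used. The series text states antisense RNA amplification. The submitters' processing notes name CASAVA 1.8.2, STAR 2.4.0j, HTSeq 0.6.1p1 and mm10. Annotation, use of strand and molecular identifiers are not given in the sources used here, so reads are not counted as independent molecules. The table holds 22 symbols turned into dates, which stayed in the totals and out of the lists.

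Counts were summed per group and scaled to CPM in Python 3.11.15 (numpy 2.4.6, pandas 2.3.3, scipy 1.17.1). Summing weights cells by depth. The largest r between cells across genes was 0.867, between G1 and G2, so the table holds no duplicate library. Ratios and intervals were tried on simulated group counts drawn from a Poisson model, the counting error that they assume. That trial does not cover the spread between single cells. The 9 genes and all lists were chosen with earlier results of these data known. Besides the 9, the text names Ube2t, the 10 genes most alike and the first 5 of that ranking in the E14.5 cells. It also names at most 3 genes from either end of a list's ratios among genes at 10 CPM or more in the higher group. A gene that this rule also names is not reported here. Bard1, Fancd2os, Polg, Alb, Neurod1, Cdh5 and single cells were named for partner, overlap, marker or background values, partly after these were seen. Alternatives were equal weights for cells, edgeR 4.0.16 TMM factors, DESeq2 1.42.0 size factors, other thresholds, 1 CPM added, thinning, and leaving out cells.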

Additional observations from a re-analysis of the deposited data

Results flagged for a closer look

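Within groups of 10 or fewer cells, 33 combinations of a group and a measure (each gene's CPM, the number of the 9 genes at 10 CPM, and their summed CPM) were checked for 1 cell far from the others by Dixon's limit at 95%. For normally distributed values chance would flag about 1 in 20, or 1.65 here, and 15 were found. CPM with many cells lacking a read are not distributed in that way. A cell that holds the only reads of its group is always flagged, however low its level. The 15 therefore cannot be set against 1.65, and no excess over chance is read from them. The 11 E14.5 negative cells were not checked. Of the pairs of a cell and a gene, 28 of 90 had no read in E14.5 positive, 28 of 54 in P5 positive and 31 of 54 in P5 negative cells.

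In E14.5 positive cells, Brca1 stood apart in G6 at 71.4 CPM (next cell 35.995), Exo1 in G8 at 138 CPM (next 64.6) and Fancd2 in G27 at 63.6 CPM (next 3.57). In P5 positive cells, L2P12 stood apart for Brca2 at 82.5 CPM (next 22.6), Exo1 at 28.6 CPM (next 6.95), Blm at 309 CPM (next 87.0) and Brip1 at 1.64 CPM (next 0.0798). L2P8 stood apart for Palb2 at 0.112 CPM (next 0) and Fancd2 at 3.70 CPM (next 0.0798).

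In P5 negative cells, L2N9 stood apart for Brca2 at 1.72 CPM (next 0), Exo1 at 8.99 CPM (next 0.0352) and Fanci at 13.6 CPM (next 0.0691). Palb2 was far higher in L1N3 at 125 CPM (next 6.26), Blm in L2N4 at 3.11 CPM (next 0.272) and Brip1 in L2N10 at 261 CPM (next 64.3). No gene was called higher with the reporter at one age and lower at the other.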

How the results depend on the processing

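No paired analysis was possible because each cell is its own library and no number pairs cells across groups. Ratios in this part have 0.5 count added to each side. For E14.5 positive over negative cells, title numbers 1 to 10 gave 8 higher, 0 lower, a median of 5.85, Brca1 at 9.15 and Brip1 at 8.42. Leaving out 1 cell moved the counts from 3 to 6 higher and from 1 to 4 lower and the median from -0.55 to 2.04, with Brca1 from -1.88 to 0.94, Brip1 from -3.80 to 6.36 (both highest without N24) and Palb2 from -7.67 to 4.57 (without N30). Equal weights gave 3 higher and 2 lower, with a median of 0.65, Brca1 at -0.21 and Brca2 at 0.65 in place of -0.13.

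For P5 positive over E14.5 positive cells, where the main values were 1 higher and 4 lower, 2 were higher with equal weights, TMM factors, DESeq2 size factors or a 1.5-fold limit, and 0 at 4-fold or without cells led by other markers. The number lower was 7 with equal weights or a 1.5-fold limit. Leaving out 1 cell gave 0 to 2 higher and 4 to 6 lower, Blm from -0.96 (without L2P12, also the value without cells led by other markers) to 1.96, and Fancd2 from -9.45 to 0.50. TMM and DESeq2 factors moved the median of all genes in this comparison by 0.16 and 0.38. For P5 negative over E14.5 negative cells, 1 was higher at 4-fold and 1 to 4 with 1 cell left out, with Palb2 from -2.03 to 12.01. At 50 CPM the median number of genes in E14.5 positive cells was 1.5, and 3 of the 10 most alike genes remained in the E14.5 cells alone. P5 negative comparisons without cells led by other markers could not be run, since no cell was left. The other alternatives left the counts of genes called within 1.5 times, which does not say that each gene kept its call. Where the values moved, the cause was not tested beyond the fewer cells. Thinning reads left the number of genes at 10 CPM unchanged in the cells deep enough for it. It does not test which transcripts entered a library, and group sizes of 6 to 11 cells leave shares imprecise.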
